A study of Mus musculus with 8 samples.

Results

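Gsg1, Wdr64, Fam71b, Ccdc54, Efcab1, Ttc24, Gm4934, Gm136 and Cntnap5b are 9 little-studied testis genes of 19276 entries counted in mouse testis RNA and in RNA recovered with an RNF17 antibody. They were chosen by their read counts, for a large and consistent fall in animals homozygous for the Rnf17 mutation, in testis or in RNF17 immunoprecipitates (IPs). Their homozygous to heterozygous differences are therefore given as a description, with no test. The study compared C57BL/6 mice aged 6 weeks that were heterozygous (het) or homozygous (hom) for the mutation of Rnf17. The labels do not describe the mutant allele, no wild-type group was analysed here, and the comparison animals also carried a mutant copy. RNA was sequenced from whole testis, for which no antibody was used, and from IPs of testis lysate made with an RNF17 antibody in both genotypes. Each of the 4 groups had 2 libraries, replicates 1 and 2. Whether replicates are different animals is not stated in the labels, and their spread may be technical.

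RNF17 is made in male germ cells, carries Tudor domains that read methylated arginines on partner proteins, and is known to be needed for spermatids to develop into sperm. Spermatids are the haploid cells after meiosis: round spermatids make and store large amounts of messenger RNA, and elongating spermatids build the tail, the acrosome and a compact nucleus. The 9 genes fall into a few protein types. Efcab1, also called calaxin, is a calcium-binding protein of the docking complex that holds outer dynein arms, the motors of cilia and flagella. Gsg1 is a claudin-like membrane protein of germ cells that binds the testis poly(A) polymerase Papolb. Fam71b belongs to a family of Golgi proteins that bind the small GTPase RAB2. Gm4934 is the older symbol of Spata31d1b, of a spermatogenesis-associated family with near-identical copies. Cntnap5b is a contactin-associated protein of the neurexin superfamily, best known as adhesion molecules of neurons. Wdr64, Ttc24 and Ccdc54 are named for their WD repeats, tetratricopeptide repeats and coiled coil. Gm136 is a predicted gene.

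The start regions of these genes, which were picked for a shared fall, are shown first. RefSeq windows from 250 bases before to 50 bases after a transcript start (build GRCm38.p6) were found for 7 of the 9 genes (not for Wdr64 and Efcab1), in 8 windows, of which Gsg1 had 2. Windows were searched on both strands for TGACGTCA, the full cyclic AMP response element (CRE), and its core TGACG, which lies within it. Also searched were GTTGCC, an arm of the X-box of cilium genes, TATAAA, the TATA box, and AACNGTT, the MYB palindrome. The full CRE, its core and GTTGCC were in 0 of the 8 windows, against 1.79%, 20.8% and 12.5% of 32851 windows. TATAAA was in 2, starting 175 bases before the start of Gsg1 and 111 before that of Ccdc54, and in 13.6% of all windows. AACNGTT was in 1, Gm136, 54 bases before the start, and in 4.45% of all windows. A search for runs of at least 12 bases shared by windows of different members found 4. Of these, TGTGACATCACA is shared by Gsg1 and Ccdc54 in the same orientation, beginning 37 and 11 bases before their starts. It holds TGACATCA, a CRE-like sequence. TGTGACATCACA was in 33 of all windows (0.1%) and TGACATCA in 3.62%. A match is a description of letters, not a bound site.

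Shown from 200 bases before the start to 20 after it, 5′ to 3′ on the gene's strand, are Gsg1 and Ccdc54 for the shared bases, Gm136 for the MYB palindrome, and Ttc24, the only member higher in the het IP, for comparison. Capitals mark TGTGACATCACA, AACAGTT and TTTATA, which is TATAAA on the other strand.
Gsg1 (chr6:135254317-135254536, minus strand): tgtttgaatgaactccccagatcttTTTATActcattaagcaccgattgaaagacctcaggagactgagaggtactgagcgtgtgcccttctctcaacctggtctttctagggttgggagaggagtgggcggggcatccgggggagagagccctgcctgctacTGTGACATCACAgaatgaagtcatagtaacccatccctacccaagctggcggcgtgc
Ccdc54 (chr16:50591135-50591354, minus strand): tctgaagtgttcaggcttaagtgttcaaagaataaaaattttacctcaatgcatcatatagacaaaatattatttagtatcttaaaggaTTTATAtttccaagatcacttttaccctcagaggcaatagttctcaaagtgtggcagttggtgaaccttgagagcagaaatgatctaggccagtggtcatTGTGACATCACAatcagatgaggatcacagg
Gm136 (chr4:34756240-34756459, minus strand): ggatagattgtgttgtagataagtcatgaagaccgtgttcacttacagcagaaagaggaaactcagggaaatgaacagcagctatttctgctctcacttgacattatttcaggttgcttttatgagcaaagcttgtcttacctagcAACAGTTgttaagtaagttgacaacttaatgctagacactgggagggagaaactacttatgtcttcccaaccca
Ttc24 (chr3:88078285-88078504, minus strand): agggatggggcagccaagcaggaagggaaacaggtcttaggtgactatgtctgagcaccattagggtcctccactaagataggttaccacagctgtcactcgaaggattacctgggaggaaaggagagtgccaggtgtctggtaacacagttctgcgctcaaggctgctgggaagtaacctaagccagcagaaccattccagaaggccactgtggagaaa
The 4 stretches hold no other of the named motifs, and Ttc24 holds none of them. Left in lower case are 2 more of the shared runs, TGAGAGCAGAAAT, in Ccdc54 and on the other strand in Gm136, and GAGGAAACTCAG, in Gm136 and in the window of Gsg1 not shown.

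In the GENCODE M21 annotation the 9 genes lie on 7 chromosomes. Wdr64 and Cntnap5b are both on chromosome 1, with 28 and 24 exons, and Ccdc54 and Efcab1 on chromosome 16. Ccdc54 has 1 exon, as have 3.889% of 17204 coding genes matched to the table. Fam71b has 2 exons, Gm4934 has 4, and the median coding gene has 8. The coding length ran from 636 bases in Efcab1 to 4083 in Gm4934, around a median of 1314. Gsg1 overlaps Fam234b on the opposite strand, and Ccdc54 and Efcab1 overlap the antisense RNAs 4930542D17Rik and Gm33696. Wdr64 overlaps the small nuclear RNA Gm25560 on the same strand, and Cntnap5b overlaps 6 annotated genes, some on the same strand. How the counting treated strand and overlap is not given in the sources used here, so reads of such neighbours cannot be told apart.

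Reads assigned to genes numbered 5661754 to 50575649 per library, which makes 1 read 0.0187 to 0.189 CPM, the scaled read counts used below. Rnf17 itself had 506.5 and 550.7 CPM in het testis and 50.21 and 97.54 in hom testis, in the direction of the labels. In whole testis, fewer cells of a type and less RNA per cell cannot be told apart, and the libraries do not assign a gene to a cell type. Among marker lists, 31 of 31 elongating spermatid genes measured were below 0 on the log2 scale in hom testis, with a median of -3.95, and 31 of 33 round spermatid genes, with a median of -1.46. The median was -0.44 for 24 meiotic prophase genes, 0.83 for 21 Sertoli genes and 1.23 for 15 Leydig genes. Summed Sertoli markers (23 genes) ran from 1036 to 1276 CPM in het and from 1968 to 2074 in hom testis. Summed Leydig markers (16 genes) ran from 604.4 to 642 and from 1269 to 1390. Their part in the values below was not tested. The Leydig hormone gene Insl3, the globins Hba-a1, Hba-a2, Hbb-b1 and Hbb-b2, and Papolb are listed at 0 in all 8 libraries, so a gene listed at 0 is not read as absent.

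Of the genes measured in testis, 5.69% of 14332 were at least 4-fold lower in homs by the fit, with both hom libraries below both het libraries (no overlap). In the IPs the share was 6.96% of 13427, and 3.8% of 13263 measured in both did so in both. All 9 members did so in testis and in IP, having been picked for a large and consistent fall in either. Their median log2 fold change was -5.32 in testis and -5.20 in IP, where the median of all genes was 0.04 and -0.03. The rank among all genes from the lowest ran from 27 for Gm136 to 225 for Cntnap5b in testis, and from 8 for Ttc24 to 459 for Ccdc54 in IP. Cntnap5b in testis, 14.5-fold lower, and Ccdc54 in IP, 7.38-fold lower, were the smallest differences among the members. No member was listed at 0 in both hom testis libraries: between 13 reads of Ttc24 and 3329 of Gsg1 remained there.

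**Figure D1:**
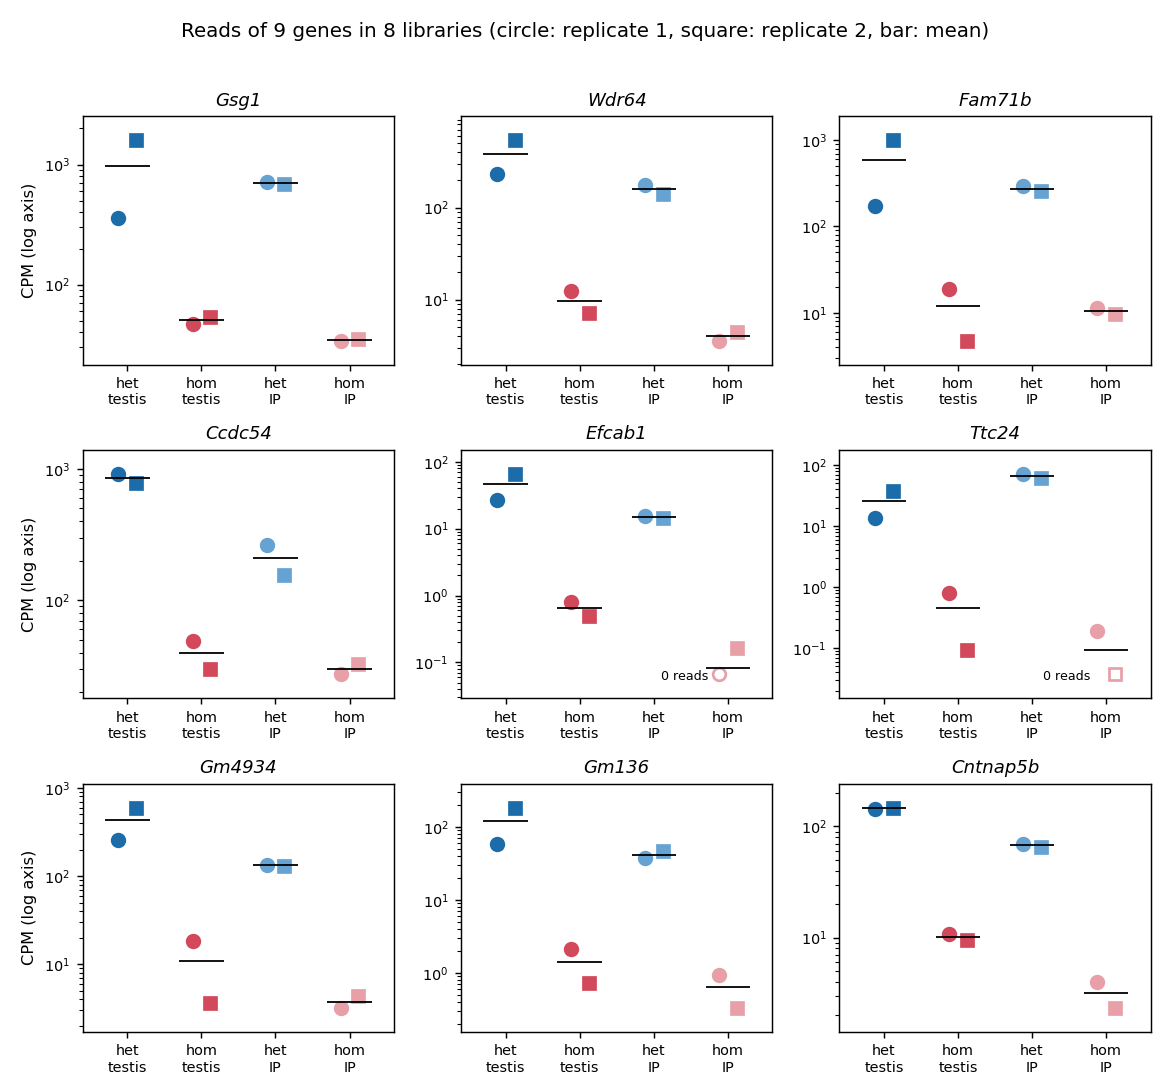
CPM of the 9 genes in each library on log axes, by group (het and hom testis, het and hom RNF17 IP). Circles are replicate 1, squares replicate 2, bars the mean of the 2 libraries, and open symbols libraries with 0 reads. Each gene's het libraries lie above its hom libraries of the same kind.

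Efcab1, the docking protein of outer dynein arms, had 26.8 and 65.62 CPM in het testis and 0.8115 and 0.4859 in hom testis, replicates 1 and 2 in order. In the IPs it had 15.52 and 14.56 CPM in hets, and 0 reads and 1 read in homs. The IP libraries of hom animals were thus at the edge of detection, where 0 reads in replicate 1 allow up to 0.567 CPM. The log2 fold change was -6.22 (SE 0.83) in testis, a ratio of means of 71.2. In IP the ratio of summed reads, scaled for depth, was 171.2, with an exact 95% Clopper-Pearson interval from 30.46 to 6789. This interval covers counting error only. It leaves out the spread between libraries and the picking of the gene for its fall, so it is no test.

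The other outer dynein arm docking genes had smaller differences. Of 5 measured, 4 were below 0 in hom testis, and 1, Ccdc63, was at least 4-fold lower without overlap. Ccdc63, a testis paralogue of the docking subunit Ccdc114, had 291.6 and 362.4 CPM in het and 57.41 and 70.68 in hom testis. Its log2 fold change was -2.36 in testis and 0.13 in IP. Ttc25, a docking subunit with tetratricopeptide repeats, had -0.57 in testis and 1.11 in IP, and Armc4, a docking subunit with armadillo repeats, -1.36 and -0.52. By name family, 8 of 8 measured Efcab genes with EF-hands other than Efcab1 were below 0 in hom testis, with a median of -0.89, and 2 were at least 4-fold lower without overlap. The 3 with most reads, Efcab5, Efcab2 and Efcab6, had testis values of -0.32, -1.16 and -0.62. Efcab2 and Efcab5 differed in sign between the sample kinds, at 1.17 and 0.74 in IP.

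Gsg1, the membrane protein that binds Papolb, had 361.9 and 1589 CPM in het testis and 47.37 and 53.49 in hom testis. Its het IP libraries had 712.3 and 683.8 CPM and its hom IP libraries 34.21 and 35.0. The 2 het testis libraries lay 4.39-fold apart, while the other pairs nearly coincided. The log2 fold change was -4.28 (SE 0.88) in testis and -4.42 (SE 0.22) in IP. The related gene Gsg1l had few reads, at 2.497 and 1.624 CPM in het and 3.854 and 2.224 in hom testis, a log2 fold change of 0.56.

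Fam71b, of the RAB2-binding Golgi family, had 171.5 and 993.4 CPM in het testis and 18.97 and 4.766 in hom testis. IP libraries had 291.5 and 258.2 CPM in hets and 11.34 and 9.665 in homs. It had the widest het testis pair of the 9 genes, 5.79-fold apart, and its hom testis pair lay 3.98-fold apart in the opposite order. The log2 fold change was -5.64 (SE 1.18) in testis and -4.79 (SE 0.24) in IP.

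All 6 other Fam71 genes were at least 4-fold lower without overlap in hom testis and in hom IP, with medians of -3.53 and -3.04. Such a difference was found for 5.69% and 6.96% of all genes, and the 6 genes were listed because Fam71b had been picked. Fam71f1 had 211.9 and 577.3 CPM in het and 34.18 and 24.13 in hom testis (log2 fold change -3.77). Fam71d had 200.1 and 442.8 against 28.91 and 36.56 (-3.30), and Fam71e2 244.0 and 359.7 against 67.66 and 29.42 (-2.64). Fam71b stood lowest of the 7 in testis, and Fam71a lowest in IP.

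Gm4934, the Spata31 family gene, had 256.2 and 599.0 CPM in het testis and 18.26 and 3.607 in hom testis. The IPs gave 134.1 and 130.3 CPM in hets and 3.213 and 4.333 in homs. The hom testis pair lay 5.06-fold apart with replicate 1 the higher, but both stayed far below the het libraries. The log2 fold change was -5.31 (SE 1.01) in testis and -5.20 (SE 0.26) in IP. Its reads could be split among near-identical copies, so its level is uncertain.

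Cntnap5b, the neurexin-type adhesion gene, had 145.0 and 147.9 CPM in het testis and 10.75 and 9.569 in hom testis. IP levels were 69.65 and 65.69 CPM in hets and 3.969 and 2.333 in homs. The het testis libraries lay 1.02-fold apart and the hom IP libraries 1.70-fold. The log2 fold change was -3.85 (SE 0.56) in testis, the smallest of the 9, and -4.52 (SE 0.31) in IP. Of the 6 other Cntnap genes, 5 were below 0 in hom testis and 2 at least 4-fold lower without overlap, and these were Cntnap5a (-2.67) and Cntnap5c (-3.34). Cntnap5a had 22.47 and 17.25 CPM in het and 3.854 and 2.448 in hom testis, and Cntnap5c 13.48 and 5.276 against 1.319 and 0.598. Cntnap2, the family member with most reads, had 138.3 and 69.34 against 68.37 and 65.5 CPM (-0.63).

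Wdr64, with WD repeats that fold into a propeller, had 234.4 and 536.6 CPM in het testis and 12.27 and 7.251 in hom testis. With the antibody, levels were 174.8 and 142.0 CPM in hets and 3.591 and 4.499 in homs. The lowest het library, at 142.0 CPM, lay far above the highest hom library, at 12.27. The log2 fold change was -5.32 (SE 0.75) in testis and -5.36 (SE 0.27) in IP. Of 7 measured neighbours in name from Wdr60 to Wdr69, 0 were at least 4-fold lower without overlap. Those with most reads, Wdr60, Wdr65 and Wdr62, had testis values of -1.04, -0.46 and 0.46.

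Ttc24, with tetratricopeptide repeats, which bind other proteins, had 13.48 and 38.09 CPM in het testis and 0.8115 and 0.09344 in hom testis. In the IPs it had 71.43 and 60.31 CPM in hets, and 1 read and 0 reads in homs. It was the only member whose 2 het IP libraries lay above both het testis libraries. The testis log2 fold change was -6.15 (SE 1.23), which rests on 13 hom reads. In IP the depth-scaled ratio of summed reads was 759.9, with an exact 95% Clopper-Pearson interval from 136.1 to 30040. It too covers counting error only, rests on 1 hom read and is no test, the gene having been picked for its fall. Of 9 measured neighbours in name from Ttc21a to Ttc29, 0 were at least 4-fold lower without overlap. Ttc21b, Ttc25 and Ttc28, those with most reads, had testis values of -0.04, -0.57 and -0.69.

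Ccdc54, a single-exon gene for a coiled-coil protein, had 912.7 and 786.1 CPM in het testis and 49.3 and 29.94 in hom testis. IP libraries held 262.3 and 156.2 CPM in hets and 27.4 and 32.66 in homs. Its log2 fold change was -4.43 (SE 0.65) in testis and -2.88 (SE 0.27) in IP, the smallest of the 9 in IP. Of 8 measured neighbours in name from Ccdc50 to Ccdc59, 0 were at least 4-fold lower without overlap. Ccdc55, Ccdc50 and Ccdc59 had the most reads, with testis values of -1.54, -1.17 and 0.17.

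Gm136, the predicted gene, had 58.59 and 184.1 CPM in het testis and 2.13 and 0.7289 in hom testis. The IPs gave 37.58 and 46.22 CPM in hets and 0.945 and 0.3333 in homs, the last from 5 and 2 reads. Its testis log2 fold change of -6.49 (SE 0.98) was the lowest of the 9, and that in IP was -6.11 (SE 0.42).

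**Figure D2:**
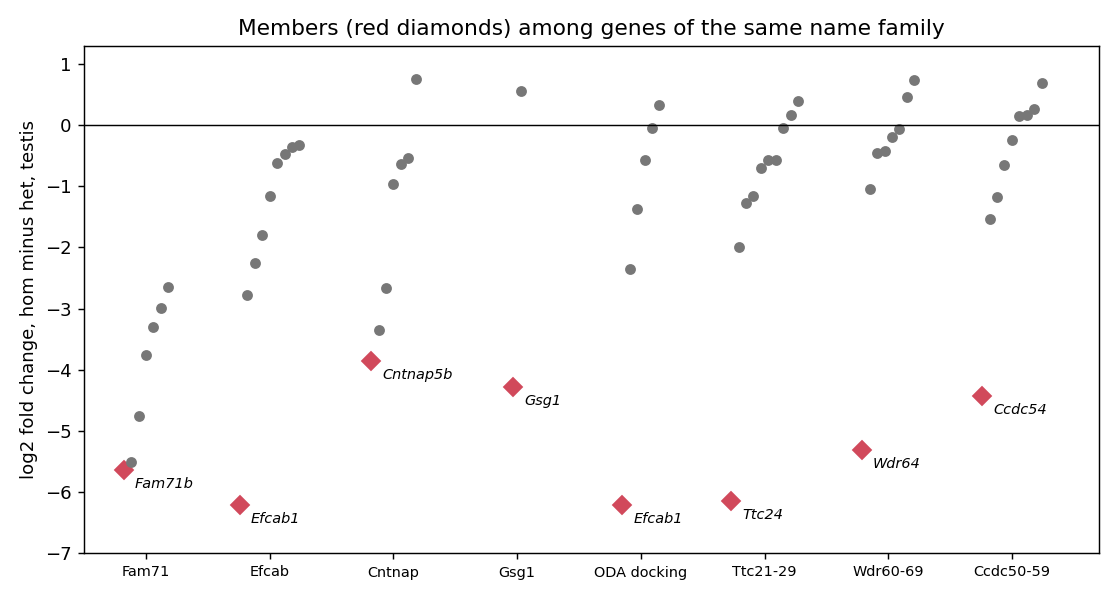
Log2 fold change of hom against het testis (vertical axis) for genes of each name family or complex (horizontal axis), with members as red diamonds and other genes as grey circles. Each member lies lowest in its list, and the Fam71 genes lie between -5.64 (Fam71b) and -2.64 (Fam71e2).

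Per kilobase of GENCODE M21 transcript, which allows levels of different genes to be set side by side, Gsg1 and Ccdc54 had the highest het testis means, 746.4 and 654.4 CPM per kb. Fam71b had 266.5, Wdr64 100.8, Gm4934 99.74 and Gm136 92.6 CPM per kb. Cntnap5b had 36.38, Efcab1 16.79 and Ttc24 11.45. Much of this order lies within the spread of the libraries. Libraries of Gsg1, from 276.9 to 1216 CPM per kb, spanned both of Ccdc54 and overlapped those of Fam71b. Libraries of Fam71b, Wdr64, Gm4934 and Gm136 overlapped one another, as did those of Efcab1 and Ttc24. Cntnap5b, at 36.01 and 36.73, overlapped none of the other members, and Ccdc54 lay above Fam71b without overlap. In the het IP, Ttc24 at 29.26 CPM per kb stood above Cntnap5b at 16.8 and Efcab1 at 5.465, without overlap.

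The 2 het testis libraries differed in most members. Replicate 2 was over 2-fold higher for 7 of the 9 genes, from 2.29-fold for Wdr64 to 5.79-fold for Fam71b, whereas Ccdc54 was at 0.8613 and Cntnap5b at 1.02 of replicate 1. Summed elongating spermatid markers were 12650 CPM in het testis replicate 1 and 46180 in replicate 2, and round spermatid markers 5495 and 12920. In hom testis the order was the other way. Replicate 1 was the higher for 8 of the 9 genes, by up to 8.68-fold for Ttc24, while the summed elongating markers were 3545 in replicate 1 and 5331 in replicate 2. The few member reads left in hom testis therefore did not follow the summed spermatid markers between these 2 libraries. The het IP pair was close for every member, with ratios of replicate 2 to 1 from 0.5956 for Ccdc54 to 1.23 for Gm136.

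**Figure D3:**
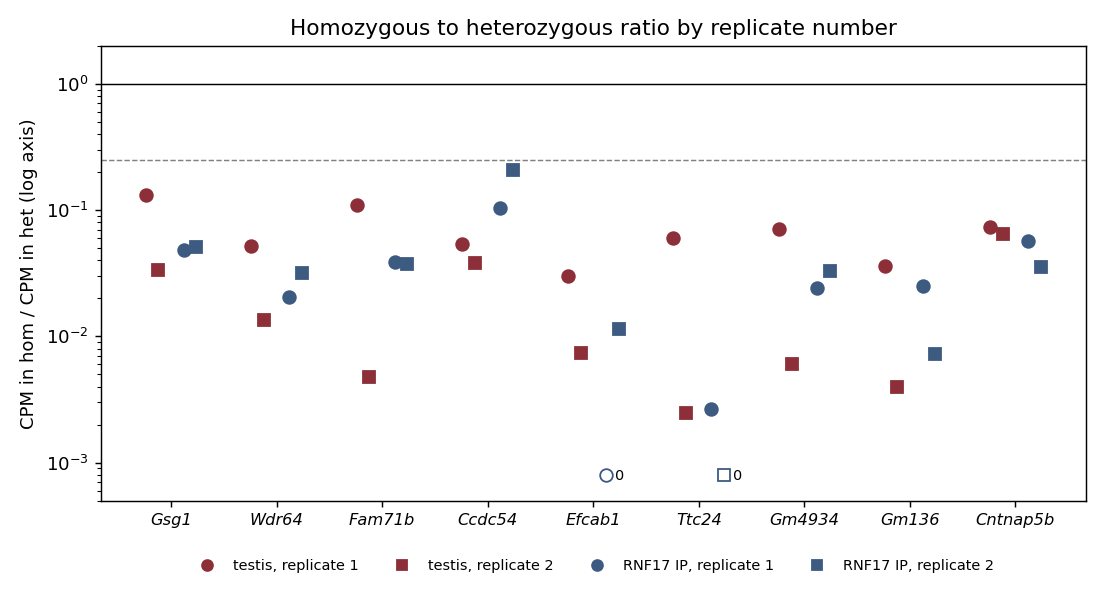
CPM in hom divided by CPM in het (vertical log axis) for libraries of the same kind and replicate number, for each gene. The solid line marks a ratio of 1, the dashed line 0.25, and open symbols a hom library with 0 reads. In testis replicate 2 gave the lower ratio for all 9 genes, and the 2 ratios lay furthest apart on the log axis for Ttc24, at 0.06018 and 0.002454, with Fam71b next, at 0.1106 and 0.004797.

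A list of 734 genes with different testis levels is given in the authors' deposited table, where 19276 entries were counted, and 8 of the 9 members are on it. It comes from the same testis libraries that served to pick the members for a fall, so it is no independent check. In the authors' deposited table Efcab1 ranks 4 from the lowest log2 fold change (-4.26, with means of 683.3 and 9.42) and Gm136 ranks 6 (-4.19, 1798 and 20.64). Wdr64 ranks 13 (-3.89) in the authors' deposited table and Gsg1 ranks 113 (-2.95). These listed log2 fold changes are smaller in size than the ratios of the listed means. They are also smaller than the values fitted here, -6.22 for Efcab1, -6.49 for Gm136 and -4.28 for Gsg1. The reason is not given in these sources, so listed and fitted values are not on the same scale. Ttc24 is the member that the authors' deposited table does not list.

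**Figure D4:**
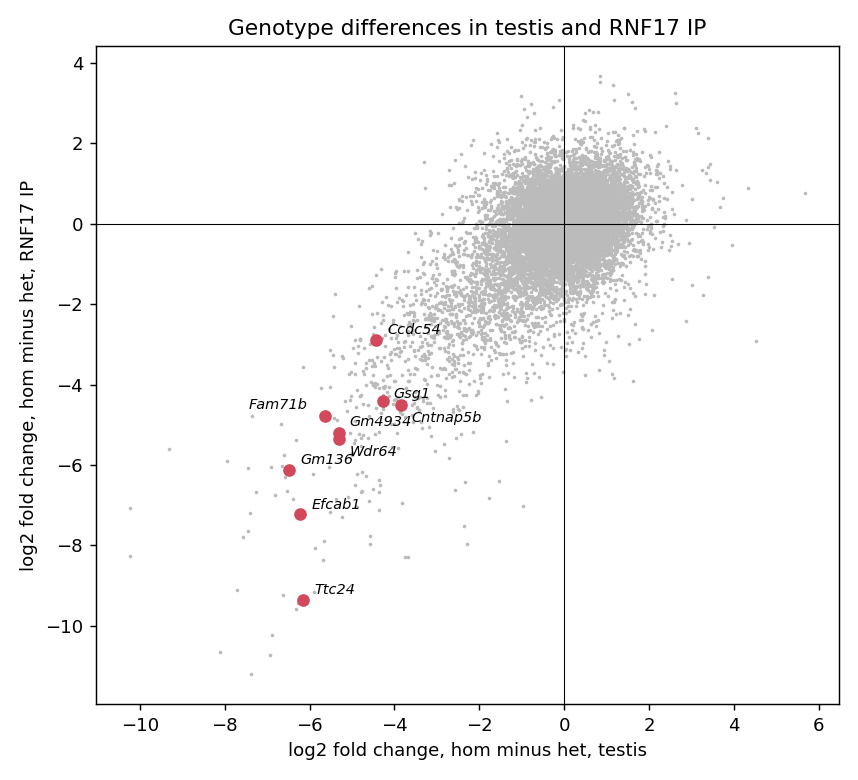
Log2 fold change of hom against het in testis (horizontal axis) and in RNF17 IP (vertical axis) for each gene measured in both (grey) and the 9 members (red). Ccdc54 is the member nearest to 0 in IP and Cntnap5b in testis, and Ttc24 lies lowest in IP at -9.35, a fitted value that rests on 1 hom read.

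Whether the antibody recovered member RNA in proportion to the lysate was asked in each genotype by comparing the IP with whole testis. These comparisons were not used to pick the genes, but they share libraries with those that were: a high het testis value counts toward both. In hets, 8 of 9 members had a log2 fold change of IP against testis below 0, with a median of -1.23 against -0.04 over all genes. EdgeR's quasi-likelihood test with Benjamini-Hochberg adjustment called 0.0% of 13562 genes, lower, higher or either, and 0 of 9 members. At an unadjusted p under 0.05 it had 2460 genes, and DESeq2 called 599. Without overlap of the groups, 6 of 9 members were lower in both IP libraries, as were 23.7% of all genes, and 1 was higher, as were 29.3%. Elongating spermatid markers had values below 0 for 23 of 31, with a median of -0.82. Of the relatives in the 8 lists described above, 0 were called in hets.

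Ccdc54 had the largest difference, -1.999 (SE 0.42, adjusted p = 0.2064 in edgeR), and passed in DESeq2 (adjusted p = 0.01007), which called 4.89% of the genes it adjusted. Gm4934 had -1.64 (SE 0.46, adjusted p = 0.2247), Efcab1 -1.56 (SE 0.52, 0.2457) and Gm136 -1.47 (SE 0.58, 0.2736). Wdr64 had -1.23 (SE 0.46, adjusted p = 0.2636) and Cntnap5b -1.09 (SE 0.34, 0.2371). Gsg1 at -0.41 (SE 0.66, adjusted p = 0.761) and Fam71b at -1.003 (SE 0.77, 0.5027) overlapped between IP and testis. Ttc24 went the other way, at 1.41 (SE 0.55, adjusted p = 0.2733), near Rnf17 itself at 1.24 (SE 0.30, 0.2144). Ttc24 was thus higher in both het IP libraries than in both het testis libraries, but not past the threshold.

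These values hang on the het testis pair. Without het testis replicate 1, edgeR called 8 members lower and 1 higher in IP, where it called 40.8% of all genes. Without het testis replicate 2, it called 5 lower and 3 higher, where it called 52.4%, and Gsg1 turned to 0.90 and Fam71b to 0.63. In both fits het testis was a lone library, assumed to vary like the IP pair.

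In homs, 6 of the 9 members had enough reads to be tested, and Efcab1, Ttc24 and Gm136 did not. EdgeR called 3.28% of 13334 genes, 1.45% lower and 1.84% higher in IP, and 0 of these 6 members. All 6 values were below 0, and 3 of the 6 were lower in both IP libraries without overlap, as were 28.3% of all genes. Cntnap5b had -1.70 (SE 0.55, adjusted p = 0.1036 in edgeR) and passed in DESeq2 (adjusted p = 0.04366), which called 10.6% of the genes it adjusted. It also passed in edgeR without hom testis replicate 1 (adjusted p = 0.02415), where 17.6% of all genes were called. Wdr64 had -1.27 (SE 0.55, adjusted p = 0.1977), Gsg1 -0.55 (SE 0.36, 0.3858), Gm4934 -1.52 (SE 0.73, 0.2406), Ccdc54 -0.41 (SE 0.40, 0.5809) and Fam71b -0.17 (SE 0.62, 0.8987). Rnf17 RNA was higher in hom IP, at 2.03 (SE 0.47, adjusted p = 0.03963). Without hom testis replicate 1, Fam71b turned to 1.12 and Gm4934 to 0.05. Without hom testis replicate 2, Wdr64 (-1.68), Gm4934 (-2.35) and Cntnap5b (-1.86) were called lower, where 32.5% of all genes were called. Among the relatives, 2 were called in homs, Wdr60 and Ccdc55, both higher in IP. The difference between the genotypes in these IP to testis ratios was not tested, because it is made of the comparisons that picked the genes.

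**Figure D5:**
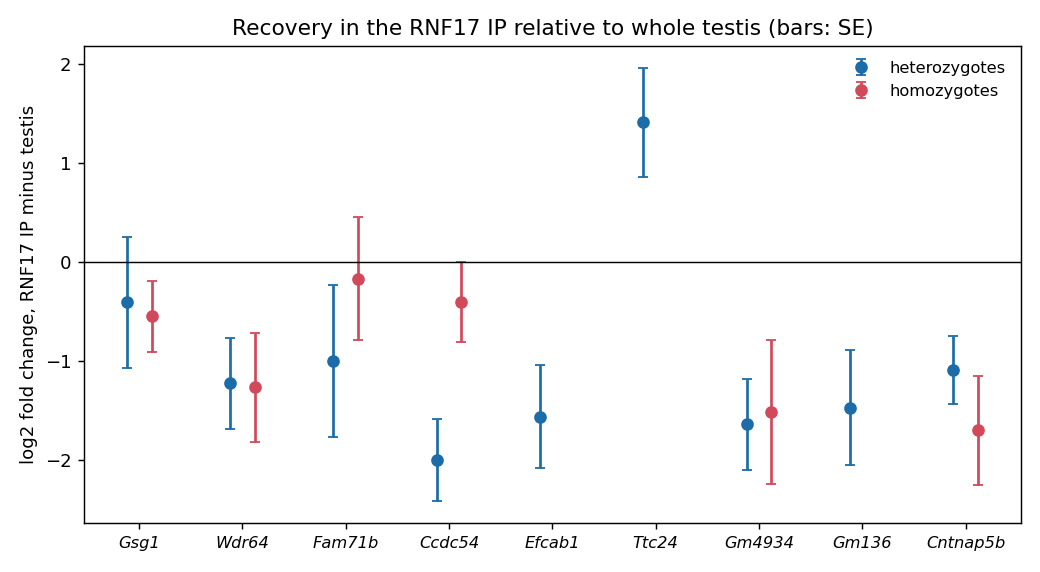
Log2 fold change of IP against testis (vertical axis) for each gene in hets (blue) and homs (red), with bars of 1 SE from edgeR. Efcab1, Ttc24 and Gm136 have no hom value because they failed the filter on low counts. Ttc24 is the only member above 0, and the error bars of Gsg1 in hets and of Fam71b in homs cross 0.

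Across the 4 groups, the order of mean CPM was het testis, het IP, hom testis and hom IP for 8 members, and Ttc24 had het IP first. Het testis and het IP overlapped for Gsg1 and Fam71b. Hom testis and hom IP overlapped for Fam71b, Ccdc54, Gm4934, Gm136 and Ttc24. For every member the step from the lower het group to the higher hom group did not overlap.

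Over the 8 libraries, log2 CPM of the members correlated with each other at r = 0.842 (Ccdc54 with Ttc24) to 0.996 (Wdr64 with Efcab1), with a median of 0.96 over 36 pairs. These points share the split between genotypes, so the values are a description. Among 10895 other genes whose log2 CPM averaged 2 or more, the gene most like Gsg1 was Tmsb15a (r = 0.999). Those most like Wdr64, Fam71b and Ccdc54 were 4931407G18Rik (0.9978), Prkcd (0.9946) and Gpd2 (0.9835). Those most like Efcab1, Ttc24 and Gm4934 were Asb17 (0.9953), Plbd1 (0.9939) and 1700019O17Rik (0.9973). Gm136 was closest to Lrrc57 (0.999) and Cntnap5b to Polk (0.9989). Such an r compares the pattern over the libraries and not the size of a change. Polk had 97.38 and 92.14 CPM in het and 41.79 and 41.02 in hom testis, where Cntnap5b had 145.0 and 147.9 against 10.75 and 9.569. Tmsb15a followed Gsg1 into the split of the het testis pair, with 43.95 and 233.2 CPM there, 5.883 and 5.625 in hom testis, 99.19 and 90.07 in het IP and 3.213 and 4.0 in hom IP. Plbd1 followed Ttc24 in being higher in het IP, at 32.91 and 27.23 CPM, than in het testis, at 16.48 and 21.38. In hom testis Plbd1 kept 4.159 and 2.747 CPM, where Ttc24 had 0.8115 and 0.09344.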

How the data were processed

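The deposited gene tables hold whole-number read counts per gene, made by the authors. The submitters' processing notes name STAR, DESeq and mm9, without versions or roles, and how reads were counted is not given in these sources. The 4 testis columns repeated in the IP table were identical to those of the testis table. The authors' deposited table of testis differences gives for each gene, per the file headers, a normalised signal averaged by genotype and a log2 fold change, which are printed here. It also gives, per the file headers, a standard error (taken as a score) and p-values, which are not. The transposon tables were not used here. Groups and replicate numbers came from the sample titles.

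Counts were scaled by TMM over all 8 libraries for the CPM printed, and per comparison of 4 libraries for the fits, so ratios of CPM differ slightly from fitted fold changes. EdgeR 4.0.16 in R 4.3.3 fitted all genes past filterByExpr with its quasi-likelihood test, with a threshold of 0.05 on the Benjamini-Hochberg adjusted p, and the SE was the log2 fold change over the root of F. On simulated counts for het IP against het testis (13562 genes) edgeR found 0% of the changes set at 2-fold, 7.46% at 4-fold and 57.6% at 8-fold. For hom IP against hom testis (13334 genes) the shares were 0%, 49.3% and 78.8%. Each simulation changed 200 genes, and every gene varied by the fitted trend with no spread of its own. The shares depend on these settings and need not hold in the data. Correlations used log2 CPM with a prior count of 2. Alternatives were DESeq2 1.42.0, total reads for scaling, no filter, the replicate number as a block, all 8 libraries in a fit, and each library left out. Sequences and promoter windows came from RefSeq tables of GRCm38.p6, another build than the counts, and were matched by symbol. The genes, the lists and the tests were chosen with earlier results of these data known. Named by rule are the 9 genes, Rnf17, the gene closest to each, up to 3 genes with most reads from each list of relatives, and list genes called in an IP comparison. Fam71a, the Spata31 genes other than Gm4934, and the genes sharing promoter bases were chosen after their values were seen.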

Additional observations from a re-analysis of the deposited data

How the results depend on the processing

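Fits with 1 library left out leave its group a lone library, assumed to vary like the other. For het IP against het testis, 0 genes were called, and 599 with DESeq2, 0 with total reads, 1 without the filter, 3 with all 8 libraries fitted, and between 11 and 7278 with each library left out. Gsg1 turned to 0.02385 with total reads, and with each library left out Gsg1 ran from -1.164 to 0.90 and Fam71b from -1.83 to 0.63, both highest without het testis replicate 2. For hom IP against hom testis, 438 genes were called (193 lower, 245 higher), and 1330 with DESeq2, 1124 with total reads (893 lower, 231 higher), 1469 without the filter, 51 with all 8 libraries fitted, and between 89 and 4556 with each library left out. With each library left out, Fam71b ran from -0.9381 to 1.12 and Gm4934 from -2.35 to 0.05302, both highest without hom testis replicate 1. Cntnap5b passed with DESeq2 and without the filter (adjusted p = 0.04662 in edgeR). Total reads moved the median of all genes by 0.37 and -0.45 in these comparisons and by 0.49 in testis and -0.27 in IP between genotypes. The cause of these shifts was not tested. The count of genes at least 4-fold lower in hom testis was 816, with a range of 637 to 1317 when each library was left out, the highest without het testis replicate 1. In IP it was 935, with 1569 without the filter and 842 to 1333 when each library was left out. With total reads these counts were 561 in testis and 1179 in IP, and without the filter the testis count was 1020. All 9 members stayed below 0 in both testis and IP under every alternative run. The smallest differences were -2.84 for Gsg1 without het testis replicate 2 and -2.47 for Ccdc54 without het IP replicate 1. The members were picked for a large and consistent fall in these same libraries, so this is a description and no check of the fall. Replicate numbers are shared by the titles, but no label says that they mark a shared animal or day. With the number as a replicate block, 194 genes were called for het IP against het testis, Ccdc54 among them (adjusted p = 0.04615 in edgeR), and 1010 for hom IP against hom testis, where Fam71b turned to 0.13. Deviations of same-numbered libraries correlated at 0.588 between het and hom testis and at -0.119 between hom testis and hom IP, across 14180 genes. With numbers crossed in the last, a replicate block chosen after seeing the data, 1787 genes were called, Fam71b was at 0.13 and Cntnap5b passed (adjusted p = 0.02914). Low reads limit Efcab1 and Ttc24 in hom IP, with 1 read each over the pair.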

Other observations

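Genes other than the 9 also have the 12 bases TGTGACATCACA that the windows of Gsg1 and Ccdc54 share. Of 32 genes with such a window in RefSeq (GRCm38.p6), 14 were in the count table, Gsg1 and Ccdc54 included. Of the 11 others that could be measured in testis, 10 were below 0 in hom against het, with a median log2 fold change of -2.55, and 6 of the 11 (54.5%) were at least 4-fold lower without overlap. Over 11294 genes with a window the median was 0.03 and the share 5.68%. Fscb, a protein of the sperm fibrous sheath, was the lowest, with 259.0 and 871.3 CPM in het and 22.52 and 29.0 in hom testis (-4.46). Hsfy2, of the heat shock factor family, had 78.9 and 325.9 against 8.216 and 28.03 (-3.48). Allc, an allantoicase, had 114.2 and 419.3 against 21.0 and 42.24 (-3.08). Atp6v0c, a proton pump subunit, was the exception at 0.31, at a low level where the groups overlapped. It had 2.164 and 2.368 CPM in het and 4.26 and 1.514 in hom testis, and a log2 fold change of -1.44 in IP. For the 8 bases TGACATCA within them, which 344 measured genes other than the 9 hold, the share was 24.1% and the median -0.46. For the full CRE, TGACGTCA, it was 5.25% of 381 genes and for its core, TGACG, 4.32% of 3731. The other 3 shared runs of at least 12 bases were found in windows of 2, 3 and 4 other measured genes, of which 0 were at least 4-fold lower without overlap. The runs come from windows of genes chosen for their fall, the search for shared runs and TGACATCA were added after the windows were read, and whether a factor binds these bases was not tested.

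The Spata31 genes of RefSeq, which like Gm4934 lie on chromosome 13, a list added after its values were seen, were all in the table. All 5, Gm4934 included, were below 0 in hom testis, from -3.51 for 4932411G14Rik (Spata31d1d) to -5.31 for Gm4934, where the median of all genes was 0.04. 4930458L03Rik (Spata31) had 137.2 and 475.2 CPM in het and 26.58 and 22.09 in hom testis, and -2.25 in IP. Near-identical copies may share reads, so these 5 values are not independent.

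Among genes named like the members, 2 were called in hom IP against hom testis, both higher in IP. They were 1 of 7 measured from Wdr60 to Wdr69 and 1 of 8 from Ccdc50 to Ccdc59, with 0 in the other lists of relatives. Of all 13334 genes, edgeR called 3.28%, and 1.84% as higher in IP. Ccdc55, a splicing factor also called Nsrp1, had 183.6 and 161.1 CPM in hom testis and 1380 and 2137 in hom IP (log2 fold change 3.34, adjusted p = 0.01106 in edgeR). Wdr60, an intermediate chain of the dynein that moves cargo in cilia, had 420.0 and 398.6 against 1987 and 3144 (2.64, adjusted p = 0.02835). In hets the same comparison gave 0.21 (adjusted p = 0.7958) and 0.08 (0.919), and the difference between genotypes was not tested.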
